A study of Mus musculus with 142 samples.

Results

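The large histone gene cluster of mouse chromosome 13 was examined as the 40 windows of 50 kb from 21700001 to 23700000 (mm10), out of 49264 windows on the 19 autosomes. The rule names a stretch of the genome and uses no timing value. In GENCODE vM21 the symbols that start with Hist1h form a cluster of 55 genes from 21715763 to 23934851, of which 44 lie within these windows and 11 just to the right of them, and one more, Hist1h2al, lies apart at 51.2 Mb of the same chromosome. The measure was replication timing (RT), given as the log2 ratio of early to late S-phase reads, log2(E/L), in which a window above 0 was copied mostly in early S phase and one below 0 mostly in late S phase. The libraries came from F121-9 mouse embryonic stem cells, an F1 hybrid of a musculus-129 and a castaneus (CAST) strain, so that each library has an RT value for either homolog, called musculus and CAST here. Cells were grown in 2i and LIF and labelled with BrdU for 2 h before early and late S-phase cells were sorted by DNA content.

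All cells had been engineered with CRISPR-mediated deletions at the Dppa2/4 domain on chromosome 16, and no library without a deletion was analysed here. In most clones the deletions were on the musculus homolog of chromosome 16, with the CAST homolog as control. Some of these clones carried a deletion on CAST as well, and the paper describes a CTSS clone deleted on CAST. The 26 cell lines were, in the spelling of the labels, A.B.COSN123, A.BOSN1.COSN123, A.BOSN12.BTSS.COSN123, A.BOSN12.COSN123, A.COSN12, A.COSN123, AOSN.B.COSN123, AOSN.BOSN12.COSN123, AOSN.COSN12, AOSN.COSN123, ATSS.BTSS.CTSS, BOSN1.COSN123, BOSN12.COSN123, BTSS, BTSS.CTSS, CL20k, COSN1, COSN1.2.8k, COSN12, COSN123, CR11.8k, CR13.4k, CR14.6k, CTSS, Z.AOSN.COSN123 and Z.B.C. Here A, B and C are early replication control elements of that domain, OSN is a site bound by Oct4, Sox2 and Nanog, TSS is a transcription start site, and Z is another OSN site. CL and CR name deletions in the left and right parts of C. The deletions are on another chromosome than the histone cluster, so the 53 clones (66 libraries) served here as repeated measurements of 1 locus. Each clone grew from a single sorted cell, and COSN123 was 1 clone grown as separate cultures. Many lines were made by further deletion in another line. By the paper, COSN12 and COSN123 were made in COSN1, several lines in COSN123, and BTSS.CTSS in CTSS. Clones thus share ancestors, and the tests over clones below do not allow for this. Both alleles of chromosome 13 had values in 51 clones. Clone 2E.1 of A.B.COSN123 had none on the musculus homolog and clone 3C.4 of AOSN.B.COSN123 had none on the CAST homolog, so these 2 clones are described apart. Only timing was measured, so the cell type could not be checked against marker genes. Ratios hold no read depth, so errors here are the spread between clones.

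Replication-dependent histone genes supply the core histones H2A, H2B, H3 and H4 and the linker histone H1 that package DNA as it is copied, and their transcripts are made in S phase. Their mRNAs end in a conserved stem-loop, bound by the stem-loop binding protein, in place of a poly(A) tail. The genes are grouped at a few loci, of which the cluster on chromosome 13 is the largest in the mouse. In this cluster the histone genes lie in 2 groups of windows, which are separated by vomeronasal receptor genes (Vmn1r), a family of pheromone receptors of sensory neurons, and by a few zinc-finger and butyrophilin genes.

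The stem-loop was searched for within 200 bases after the stop codon, as 6 bases beginning with GG, a loop of 4 bases beginning with TT, and the exact reverse complement of the 6 bases. It was found in 51 of the 56 Hist1h genes and in 0.373% of the 20653 autosomal protein-coding genes with an annotated stop codon, histone genes included. It was present in 22 of 24 genes of the left group, 19 of 20 of the right group and 8 of the 9 genes of the first 100 kb to the right, so genes in early and in late windows carried it. The 6 H1 genes are shown because they lie in early windows of both histone groups, near 0 (Hist1h1t) and, for Hist1h1c and Hist1h1a, in late windows just to the right of the cluster. They are given from the earliest to the latest, 5′ to 3′ on the coding strand, with the stem and loop in capitals, as DNA of the reference genome (GRCm38.p6, C57BL/6J, neither of the strains measured).
Hist1h1b: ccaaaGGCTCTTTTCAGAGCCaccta
Hist1h1d: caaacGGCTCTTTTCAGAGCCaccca
Hist1h1e: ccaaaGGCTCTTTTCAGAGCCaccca
Hist1h1t: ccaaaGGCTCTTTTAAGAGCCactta
Hist1h1c: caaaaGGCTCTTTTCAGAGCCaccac
Hist1h1a: ccaacGGCTCTTTTCAGAGCCaccaa

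These stretches lie at chr13:21779832-21779857 (Hist1h1b, minus strand), chr13:23555782-23555807 (Hist1h1d, plus), chr13:23621777-23621802 (Hist1h1e, minus), chr13:23696520-23696545 (Hist1h1t, plus), chr13:23739507-23739532 (Hist1h1c, plus) and chr13:23764387-23764412 (Hist1h1a, plus). The form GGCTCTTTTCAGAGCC was found in 33 of the 51 genes with a stem-loop and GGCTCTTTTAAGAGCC, the form of the testis gene Hist1h1t, in 8. Most H4 genes had another form. The 7 genes with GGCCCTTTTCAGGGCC were all H4 genes, among them Hist1h4k in the left group.

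RefSeq promoters, from 250 bases before to 50 after the start, were matched by gene ID for 51 Hist1h genes (52 promoters). The octamer ATTTGCAT, a motif known from H2B promoters and bound by Oct1, was found on either strand in 6 of 15 H2B and 5 of 13 H2A promoters and in none of the H1, H3 and H4 promoters, against 1.74% of all 32851 promoters. On either strand, the letters CCAAT were found in 84.6% of the Hist1h promoters and in 37.4% of all promoters, and TATAAA in 59.6% and 13.6%, with neither set of letters contained in the octamer. CCAAT was found in all H1, H2A, H2B and H3 promoters but in 3 of 11 H4 promoters. Promoters of H2B genes from an early, an intermediate and a late window are shown with the octamer in capitals, on the coding strand.
Hist1h2bk: catttcactttATTTGCATacgaagttcta
Hist1h2bg: ttgagtcccttATTTGCATagaacctctat
Hist1h2bb: ttgagtctcttATTTGCATaaagcctttga

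The positions are chr13:22035780-22035809, chr13:23571330-23571359 and chr13:23746633-23746662, all on the plus strand. The first of these stretches also lies in the promoter of Hist1h2ah, the H2A gene that points the other way, and the second in that of Hist1h2ae.

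The cluster was not a single domain of early replication. Along its length RT rose from an intermediate value at the left edge to a very early peak, fell to late values in the Vmn1r genes, was early again at the right histone genes, and fell through 0 at the right edge. The mean of both alleles was 0.41 ± 0.30 (SD, n = 51 clones) in the first window, which ends at 21.75 Mb, and 0.17 ± 0.25 (n = 51) in the window just outside it. The earliest window of the cluster was 21.9 to 21.95 Mb, which holds no histone gene and lies between both parts of the left histone group. Its RT was 1.25 ± 0.17 (n = 50), with single clones from 0.75 to 1.58 around a median of 1.26. The latest was 22.45 to 22.5 Mb, with 6 annotated Vmn1r genes or pseudogenes, at −0.76 ± 0.17 (n = 50). Single clones ran there from −1.09 to −0.41 with a median of −0.74. The last window of the cluster, which starts at 23.65 Mb, was at 0.03 ± 0.26 (n = 51), and the first window to its right was at −0.28 ± 0.26 (n = 51).

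**Figure D1:**
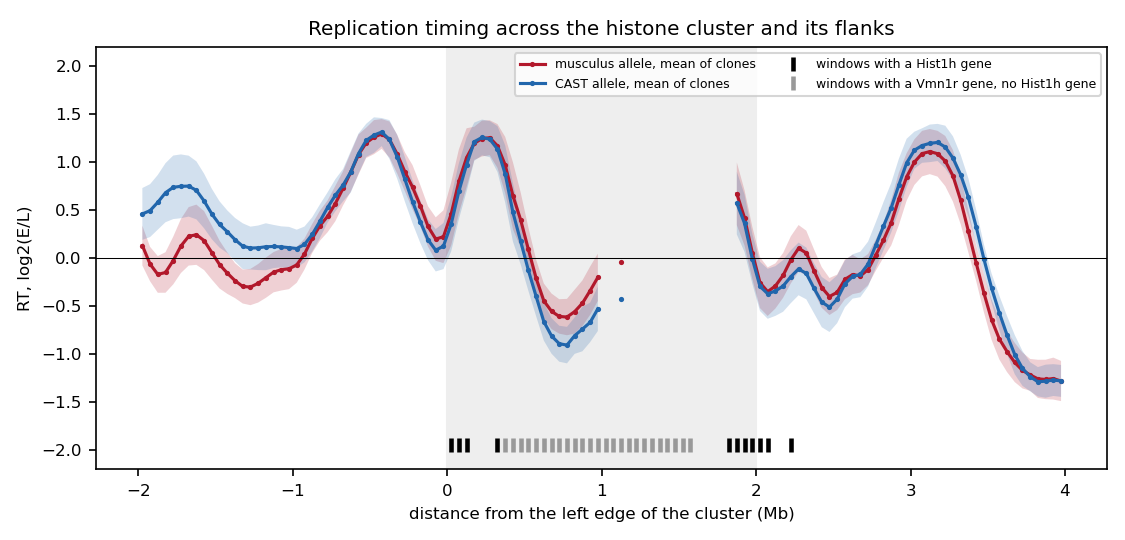
Mean RT (log2(E/L)) of the musculus and CAST alleles in 50 kb windows, against the distance from the left edge of the cluster in Mb, with 1 SD over the clones as shading; the cluster is shaded grey and ticks mark windows with a Hist1h or a Vmn1r gene. Both alleles were early at the left histone genes, late in the Vmn1r genes and early again at the right histone genes, with gaps where fewer than 20 clones had a value on both alleles.

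Values were missing from much of the middle. Of the 40 windows, 24 (60%) had a value on both alleles in at least 20 clones, against 91.7% of all windows, and these 24 are the windows used below. No library had a value in 12 windows, and 4 had values in too few clones, among them the 2 between 22.7 and 22.8 Mb. The main gap ran from 22.85 to 23.55 Mb, apart from 1 value on either allele, in different clones, at 23.05 to 23.1 Mb and 2 clones on the musculus allele at 23.5 to 23.55 Mb. It held Vmn1r211 to Vmn1r223, the zinc-finger gene Zfp322a, the nucleolar factor gene Abt1 and the butyrophilin genes Btn1a1 and Btn2a2. It also held 5 histone genes, Hist1h4h, Hist1h2af, Hist1h3g, Hist1h2bh and Hist1h3f, whose RT is therefore not given. None of the windows contained unknown bases in the reference. The repeat-masked share had a median of 38.5% in the 16 windows left out and 38.3% in the 24 used, and 28.4% in the 80 flank windows. How many reads could be given to either homolog in these windows was not tested.

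Each of the 39 Hist1h genes of the cluster windows with a value lay in a window whose mean RT was above 0, although Hist1h2ac, Hist1h2bc, Hist1h1t and Hist1h4c shared a window at 0.03. A gene has the RT of its 50 kb window here, so neighbours share a value. The median over the 39 genes was 0.60. Over all 19409 autosomal protein-coding genes with a value the median was 1.11, and 79.8% of them were above 0. The 9 genes of the first 100 kb to the right were all in windows below 0, and so was the pair Hist1h2ba and Hist1h2aa, testis variants of H2B and H2A, at −0.11. The separate pseudogene Hist1h2al at 51.2 Mb had an RT of 1.07.

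The left group of 24 genes fell into the first 3 windows of the cluster and the window at 22 Mb, and RT rose from window to window. The first held Hist1h2bl, Hist1h2ai, Hist1h3h, the pseudogene Hist1h2aj, Hist1h2bm and Hist1h4j at 0.41 ± 0.30. The second held 7 genes, including Hist1h4k, Hist1h3i and the linker histone gene Hist1h1b, at 0.75 ± 0.30 (n = 51). The third held Hist1h2bq, Hist1h2ao, Hist1h4m and their mirrored neighbours Hist1h4n, Hist1h2ap and Hist1h2br at 1.00 ± 0.28 (n = 34). The window at 22 Mb held Hist1h2ah, Hist1h2bk, Hist1h4i, Hist1h2ag and Hist1h2bj beside the thymic protease gene Prss16, at 1.15 ± 0.22 (n = 50). Between this window and the third lay Zfp184 and Pom121l2 at 1.24. Averaged over those of its 4 windows with both alleles in a clone, the left block ran from 0.19 to 1.37 across the 51 clones. Its median was 0.83, and it was above 0 in all 51. The third window entered this mean in 34 clones only.

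The right group of 20 genes was later than the left, and RT fell along it. Its first measured window, 23.55 to 23.6 Mb, overlapped 10 Hist1h genes, among them Hist1h1d, Hist1h3e, Hist1h3d, Hist1h4f, Hist1h4d and the pairs Hist1h2ae with Hist1h2bg and Hist1h2ad with Hist1h2bf, at 0.60 ± 0.32 (n = 38). The next, with Hist1h1e and the midpoint of the long gene Hist1h2be, was at 0.39 ± 0.28 (n = 51). The stem-loop of Hist1h2be (chr13:23585526-23585551) lies in the window before, at 0.60. The last, with Hist1h1t, Hist1h2ac, Hist1h2bc and Hist1h4c, was early in 26 and late in 25 of 51 clones. Averaged over those of its 3 windows with both alleles in a clone, the right block ran from −0.36 to 0.88 with a median of 0.30. It was above 0 in 46 of 51 clones. Its earliest window entered this mean in 38 clones only, so block means of different clones do not rest on the same windows. Within a clone the left block was earlier than the right in 51 of 51 clones, by 0.49 ± 0.14 (SD). To the right of the cluster, the windows with Hist1h1c, Hist1h3c and Hist1h2bb and with Hist1h2ab, Hist1h3b, Hist1h4b, Hist1h4a, Hist1h3a and Hist1h1a were at −0.28 and −0.36, below 0 in 44 and 47 of 51 clones.

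The linker histone genes illustrate this gradient. Hist1h1b had an RT of 0.75 (from 0.03 to 1.37 over 51 clones), Hist1h1d of 0.60 (from −0.20 to 1.41 over 38) and Hist1h1e of 0.39 (from −0.35 to 1.03 over 51). Hist1h1t, expressed in spermatocytes, was at 0.03, from −0.54 to 0.74. Hist1h1c was at −0.28 (from −0.76 to 0.53) and Hist1h1a at −0.36 (from −0.86 to 0.45). The single-clone ranges of neighbours in this order overlapped, and so did the ranges of Hist1h1b and Hist1h1a. By class, the genes with a value were in windows above 0 for 4 of 6 H1, 12 of 14 H2A, 12 of 14 H2B, 4 of 7 H3 and 8 of 10 H4 genes, so each class had early and late members.

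Of the 36 Vmn1r genes annotated as protein coding in the cluster, 20 had a value, 4 of them above 0 and 16 below. Vmn1r188, next to the left histone genes, was at 0.92 ± 0.29 and Vmn1r189 at 0.57 ± 0.31 (n = 33). RT then fell to −0.55 at Vmn1r197 and −0.76 at Vmn1r201, and rose again to −0.50 at Vmn1r206 towards the gap. The 14 Vmn1r windows with values had a mean of −0.26 ± 0.15 (n = 51), were below 0 in 49 of 51 clones and lay below the left block, and below the right block, in 51 of 51 clones. The window beside the gap, 22.8 to 22.85 Mb with Vmn1r209 and Vmn1r210, was the most variable of the cluster, with an SD of 0.34 on musculus and 0.53 on CAST.

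**Figure D2:**
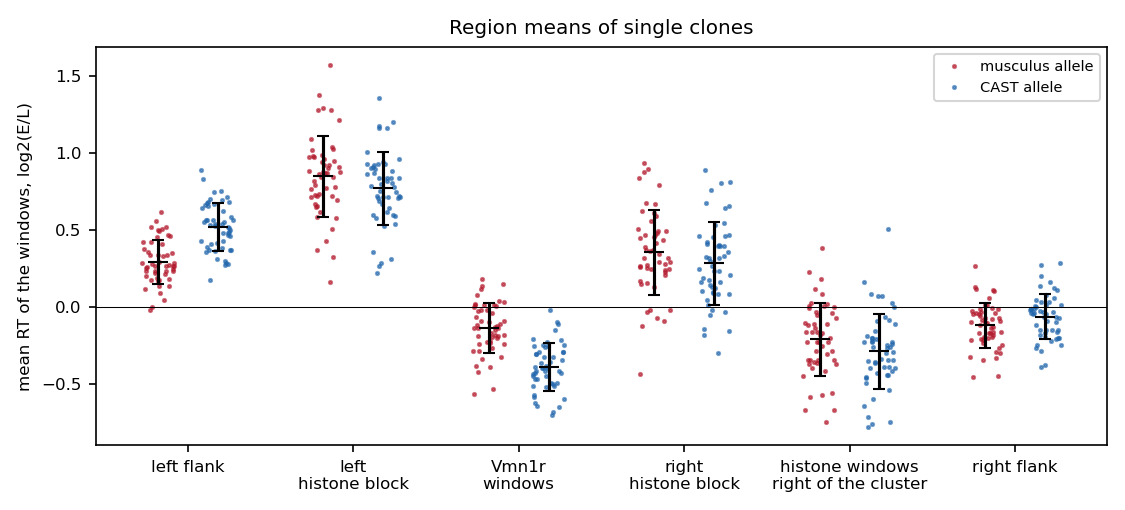
Mean RT (log2(E/L)) over the windows of each region in single clones (points, n = 51) for the musculus (red) and CAST (blue) alleles; black bars are the mean and SD, and the histone windows right of the cluster are 3 windows. The left histone block was above 0 in all clones, and the Vmn1r windows were the latest region inside the cluster.

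The histone windows were set against the rest of the cluster to ask whether the histone genes stood out from their neighbours. Their mean RT was 0.60 ± 0.25 and that of the other 17 windows 0.03 ± 0.13 (n = 51), and the former was higher in 51 of 51 clones, by 0.57 ± 0.19. A two-sided sign-flip permutation test over clones gave p = 1e-05, the smallest that 100000 resamples can give, and an adjusted p of 1.4e-05 over the 7 tests of this kind. The other windows were mixed, since they include the peak around Zfp184 (mean RT of up to 1.25) as well as the Vmn1r genes. The difference was 0.87 against the Vmn1r windows alone and 0.21 over the windows that had a value in every clone, both with p = 1e-05. A permutation test over clones says how regularly the difference recurred in these clones, not how the locus compares with other loci.

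The cluster was then compared with 2 Mb on either side. With a mean of 0.20 ± 0.15 it was later than the left flank (0.41 ± 0.14) by 0.21 ± 0.17, in 44 of 51 clones, and earlier than the right flank (−0.09 ± 0.14) by 0.29 ± 0.12, in 50 of 51 clones (n = 51; permutation p = 1e-05 and adjusted p = 1.4e-05 for either). The right flank also holds the other Hist1h genes next to the cluster windows, from Hist1h1c to Hist1h2aa, in windows below 0. Counted from the first to the last Hist1h gene, a span that shares windows with that flank, the differences were −0.30 to the left flank and 0.20 to the right. The flank means hide strong structure. The left flank had a peak of 1.30 at 21.25 Mb, near the ubiquitin ligase gene Trim27 (1.21), and a dip of 0.14 at 21.6 Mb just before the first histone gene. The right flank had a trough of −0.46 at 24.15 Mb near Carmil1 (−0.38), a peak of 1.15 at 24.8 Mb near the gene of the replication licensing inhibitor geminin, Gmnn (1.13), and late values down to −1.28 at its end. Slc17a1, a phosphate transporter gene, was at −0.24. The relation to the left flank depended on which windows of the cluster were counted. With the 7 histone windows alone, the cluster was earlier than the left flank, by 0.19 ± 0.24 (permutation p = 1e-05), and the difference to the right flank was 0.69. The difference to the left flank was −0.46 with flanks of 1 Mb, −0.10 over windows with values in every clone and −0.12 with the median over windows in place of the mean.

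Next, both homologs were compared to ask whether the cluster has an allele difference. Averaged over those of the 24 windows with both alleles in a clone, the musculus allele was at 0.28 ± 0.16 and CAST at 0.12 ± 0.15 (n = 51). The difference, musculus minus CAST, was 0.17 ± 0.08 (SD), from −0.01 to 0.38 with a median of 0.17. It was above 0 in 50 of 51 clones (permutation p = 1e-05, adjusted p = 1.4e-05). Over the histone windows alone it was 0.08. The exception was clone 2A.2 of AOSN.B.COSN123, and the highest was clone 49 of CL20k. The flank means went the other way, with −0.23 ± 0.12 on the left and −0.06 ± 0.05 on the right. The sign did not change at the cluster edges, however. Musculus was higher in the mean in 8 of 40 left and 18 of 40 right flank windows. Some of these lay near the cluster, with 0.10 ± 0.13 at 21.65 Mb and 0.21 ± 0.12 at 23.95 Mb. The difference of the cluster exceeded the mean difference of the flanks by 0.31 ± 0.08, in 51 of 51 clones (permutation p = 1e-05, adjusted p = 1.4e-05).

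By window, 8 of the 24 windows were called in limma (adjusted p of at most 0.05 over 45181 windows and a difference of at least 0.25), or 33.3%, against 19.3% of all windows. In all 8 the musculus allele was the earlier one, a call made in 8.73% of all windows. The 8 windows were the 7 in a row that start at 22.35 to 22.65 Mb and the window 22.8 to 22.85 Mb, all in the Vmn1r genes. There the difference rose from 0.26 ± 0.15 (n = 50) at 22.35 Mb to 0.37 ± 0.24 (n = 32) at 22.65 Mb, and the largest, 0.41 ± 0.54 (n = 46, limma adjusted p = 2.63e-06), was in the window beside the gap. Values were lost mainly on CAST, with 48 clones on musculus and 33 on CAST at 22.65 Mb. The rise is thus not over the same clones. At the latest window, 22.45 Mb, the musculus allele was at −0.62 ± 0.19 and the CAST allele at −0.91 ± 0.19, and musculus was the earlier in 48 of 50 clones. None of the 7 histone windows was called. Their differences lay between 0.03 and 0.11, all with musculus higher in the mean, and 5 of them had an adjusted p of at most 0.05 but missed the minimum difference. With no minimum difference 19 of 24 windows were called, against 60% of all windows, and with a minimum of 0.5 none of 24, against 5.43%. Over windows with values in every clone 1 of 10 was called, against 26.6% of all such windows. Over the libraries with a replicate number alone it was 1 of 20, against 21.2%. In both settings the share called in the cluster was thus below that over all windows. The largest difference towards CAST in the cluster was −0.02 ± 0.19 (n = 51, limma adjusted p = 0.605) at 21.85 Mb. In the left flank 18 of 40 windows and in the right flank 6 of 40 were called, all with CAST earlier (10.6% of all windows), the largest being −0.83 ± 0.32 (n = 51) at 19.85 Mb. Allele calls of neighbouring windows are not independent, because values were smoothed over 300 kb.

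**Figure D3:**
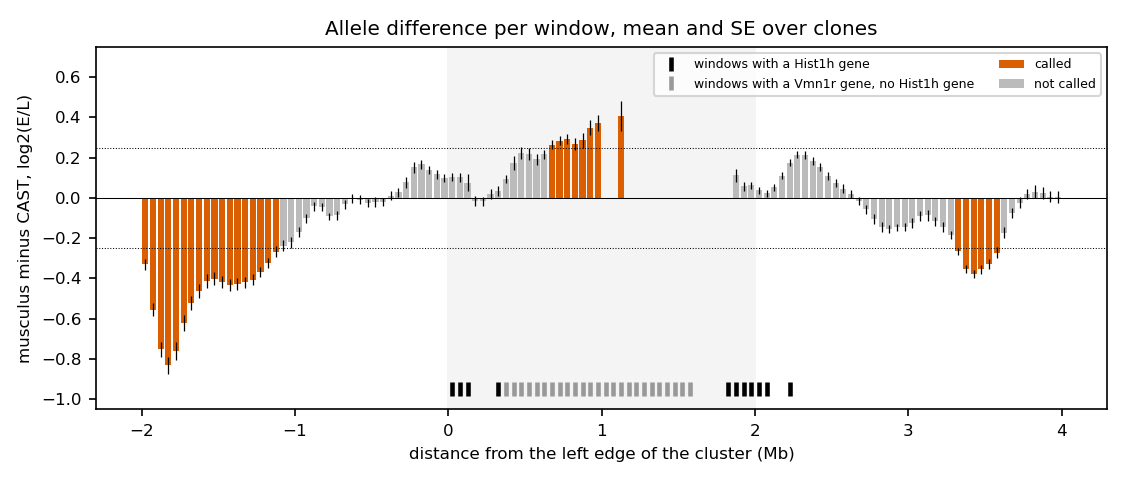
Difference in RT (musculus minus CAST, log2(E/L)) per 50 kb window, mean with SE over clones, against the distance from the left edge of the cluster in Mb; orange bars are windows called at an adjusted p of at most 0.05 with a difference of at least 0.25 (dotted lines). Called windows of the cluster lay in the Vmn1r genes with musculus earlier, and those of the flanks had CAST earlier.

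In the 2 clones with 1 measured homolog, the remaining homolog had the same profile. The CAST allele of clone 2E.1 was at 0.67 in the left block, −0.42 in the Vmn1r windows and 0.20 in the right block. The musculus allele of clone 3C.4 was at 0.73, −0.44 and 0.33. All these values lay within the range of the same allele in the other 51 clones, and the Vmn1r value of 3C.4 was lower in only 2 of the other 51.

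Clones differed more at the histone windows than at the median window of the genome. Per window, the median SD over clones was 0.31 on musculus and 0.29 on CAST for the 7 histone windows, 0.23 and 0.21 for the other windows of the cluster, and 0.20 on both alleles over all 45181 windows. The highest SD was that of CAST in the window beside the gap (0.53), where musculus had 0.34. On musculus the SD was highest on the slope at 22.1 Mb (0.35), with 0.33 at 21.75 and at 23.55 Mb, and lowest at the peak (0.17 at 21.85 Mb). These SDs are a description and were not tested.

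**Figure D4:**
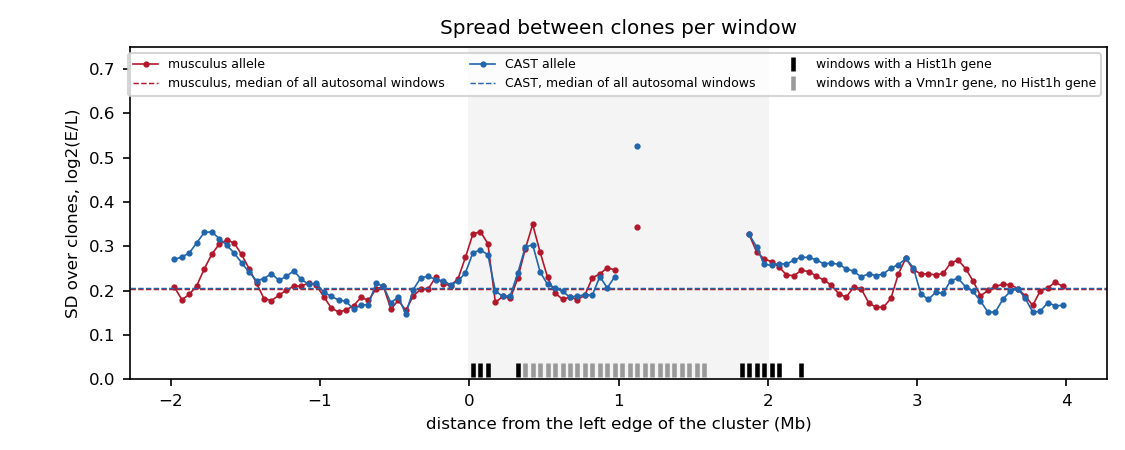
SD over clones of RT (log2(E/L)) per 50 kb window for the musculus (red) and CAST (blue) alleles, against the distance from the left edge of the cluster in Mb; dashed lines are the medians of all autosomal windows. Most histone windows lay above the dashed lines, and the highest point was that of CAST in the window beside the gap.

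The spread had several levels. For the left block, the SD was 0.08 between libraries of 1 clone (20 libraries of 9 clones). It was 0.16 between clones of 1 cell line (43 clones of 18 lines) and 0.24 over all clones. The paper states separate cultures for COSN123 only, so other repeat libraries may be technical replicates. For the right block the same values were 0.15, 0.19 and 0.26. Line means of the cluster ran from −0.01 in BTSS.CTSS (3 clones) and in AOSN.B.COSN123 (4 clones) to 0.42 in Z.AOSN.COSN123 (2 clones). Clones of 1 line were more alike than clones of different lines (F = 2.81, permutation p = 0.00905, adjusted p = 0.0106, 43 clones of 18 lines). By window, 10 of the 10 cluster windows that could be tested differed between lines in limma, against 82.2% of all windows, so the cluster was close to the background. The allele difference of the cluster did not pass the same test (F = 1.66, permutation p = 0.121, adjusted p = 0.121). Whether lines were also grown, sorted or sequenced together is not given in the labels, so line and batch cannot be told apart. Lines made from the same parent line also share ancestry, which this test did not separate.

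Parts of the cluster moved together between clones. Over the 51 clones, the left and the right block had a Pearson's r of 0.85 and a Spearman's rho of 0.82 (permutation p = 1e-05 for each; adjusted p = 1e-05 and 1.33e-05 over 4 relations). Without the 2 clones farthest from the median of the left block, r was 0.81, and after line means were removed it was 0.76 (43 clones, adjusted p = 2e-05). The left block and the Vmn1r windows, which lie side by side, had r = 0.74 and rho = 0.81 (0.72 without the 2 farthest clones), and the right block and the Vmn1r windows, on both sides of the gap, r = 0.70 and rho = 0.68 (0.66 without the 2 farthest clones). Within lines these fell to 0.52 (adjusted p = 0.000373) and 0.42 (adjusted p = 0.00524). The pooled values had permutation p of at most 2e-05. The cluster means of both alleles had r = 0.86 and rho = 0.83, 0.85 without the 2 farthest clones and 0.83 within lines (permutation p = 1e-05 for each). The values of a clone come from the same libraries and were scaled together. AOSN.B.COSN123 clone 2A.2 was the lowest clone in the cluster (−0.23), the left block (0.19), the right block (−0.36) and the Vmn1r windows (−0.58), and COSN12 clone B6 was the highest in the left block (1.37).

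**Figure D5:**
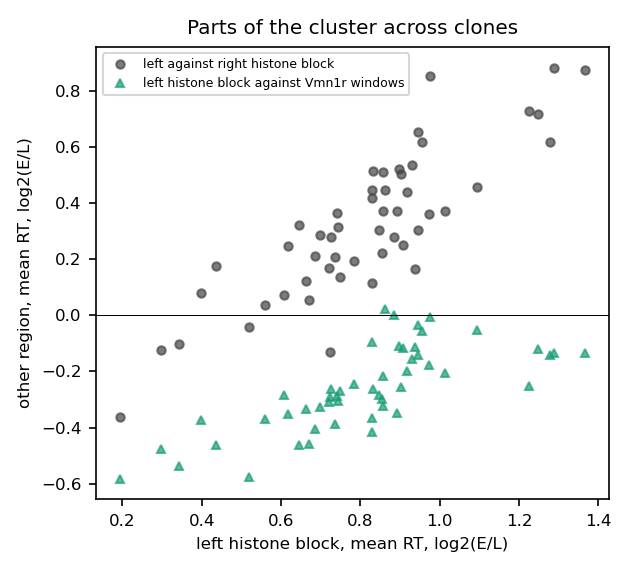
Mean RT (log2(E/L), both alleles averaged) of the right histone block (circles) and of the Vmn1r windows (triangles) against the left histone block, 1 point of each kind per clone (n = 51). Clones with an earlier left block also had an earlier right block (r = 0.85) and earlier Vmn1r windows (r = 0.74).

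Other histone loci and the genes of the histone mRNA pathway were set beside the cluster. All 9 replication-independent histone genes (H2afz, H2afx, H2afy, H2afv, H3f3a, H3f3b, H1f0, H1fx and Cenpa) were early, from 0.95 for H2afy to 1.31 for H3f3a, with a median of 1.21. All 11 genes of histone gene transcription and mRNA processing were early too, with a median of 1.24. Npat, a coactivator of histone genes, was at 1.21, Slbp, the stem-loop binding protein, at 1.37, Casp8ap2 at 1.03, and the lowest was the cleavage factor gene Cpsf2 at 0.45. Of 14 genes with symbols of the Hist2h, Hist3h and Hist4h loci, 4 had a value in enough clones, Hist3h2a and its neighbour Hist3h2bb-ps at 1.01, Hist3h2ba at 0.94 and Hist4h4 at 0.51. The 10 Hist2h genes lay in windows with values in too few clones. The peak inside the cluster (1.25) was near the medians of 1.21 and 1.24 above, and the median over all protein-coding genes was 1.11. Of the 51 Hist1h genes with a value 11 were late, close to the share over all protein-coding genes (3915 of 19409).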

How the data were processed

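RT was measured by E/L Repli-seq in 66 libraries of 53 clones. The authors used TrimGalore for trimming, bowtie2 for alignment to mm10 with strain variants masked, SNPsplit to separate the homologs, Samtools against duplicates and bedtools for counts in 50 kb windows. The musculus homolog is that of strain 129. The deposited values are log2 ratios of early over late counts, which the authors scaled, quantile-normalized and smoothed by loess over 300 kb. Versions are not given in the sources used here. All 138 columns were used. Repeat runs (3 clones, r of 0.955 to 0.963) and libraries of a clone were averaged. Read depth is unknown, so only the spread between clones gives the precision.

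A window was used if at least 20 clones had both alleles. Region means were tested over clones with two-sided sign-flip permutation tests (100000 resamples) or a permuted F, and adjusted by Benjamini-Hochberg over 7 tests. Windows were tested with limma 3.58.1 (R 4.3.3) on the whole table, without further transformation. The tests were also run on simulated data. Python 3.11.15, numpy 2.4.6 and pandas 2.3.3 were used otherwise. Genes were those of GENCODE vM21 on mm10, and a gene took the window of its midpoint. The reference chromosome ended where the last window did. The genes named are all Hist1h genes by group, the H1 genes, the extreme windows, the other genes of the cluster by family and the listed genes elsewhere. The region, the members and the lists were chosen with earlier results of these data known. Alternatives covered the unit, the clones, the windows, the flank width, single clones and lines left out, and the replicate block. A further 10 labelled samples had no column and were not analysed here.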

Additional observations from a re-analysis of the deposited data

Results flagged for a closer look

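Among the sets of 4 to 10 libraries of a cell line, 32 sets of region means and allele differences were examined for a library far from the rest, of which chance would flag about 1 in 20, and 2 were found. The second culture of COSN123 clone A10 had a mean RT of 0.0848 over the cluster, while the other 3 cultures of the same clone lay between 0.309 and 0.347. The library of A.COSN123 clone H10 had an allele difference (musculus minus CAST) of 0.352 in the Vmn1r windows, and the other 3 libraries of the line lay between 0.212 and 0.223.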

How the results depend on the processing

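Of 482 alternative values, 437 of which left out 1 clone or cell line, 476 kept the direction and the side of the threshold, or for counts stayed within 1.5 times. The cluster was later than the left flank by 0.21, but with the histone windows alone it was earlier, by 0.194. The number of cluster windows called for an allele difference was 8, against 19 with no minimum difference, 0 with a minimum of 0.5 and 1 of the 10 windows with a value in every clone. The shares over all windows were, in this order, 19.3%, 60%, 5.43% and 26.6%. Leaving out 1 clone or line gave an allele difference of 0.159 to 0.172, a difference to the left flank of −0.220 to −0.193 and to the right flank of 0.279 to 0.299, histone minus other windows of 0.552 to 0.583, a difference beyond the flanks of 0.30 to 0.31, F between lines of 2.39 to 3.26 and 8 called windows each time. Without replicate 1 or 2 the allele difference was 0.159 and 0.170. Over the 20 numbered libraries, the paired fit with the replicate number as a block gave 0.110 (permutation p = 3e-05) and 1 of 20 windows called. In that fit 21.2% of all windows were called. The same libraries without the block gave the same values, so the block did not move the count. The set of libraries, the unit and the windows tested (20 in place of 24) changed together, and their parts in the lower count were not tested. The replicate differences of 11 clones had correlations from −0.402 to 0.572 over 55 pairs of clones (median 0.0031). They showed no pairing by replicate number common to all clones. Whether some of the clones shared a batch was not tested. The alternatives for the difference beyond the flanks, the lines left out for F, the test of allele differences between lines and the numbered libraries without the block were added after the data were seen. Windows share reads through smoothing over 300 kb, 16 of 40 windows had too few values, and depth is unknown.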
